A study of Homo sapiens with 6 samples.

Results

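Reports name the following 10 mRNAs as targets of the RNA-binding ZFP36 family: VEGFA, MYC, PIM1, PIM3, PLK2, PLK3, DUSP1, KLF10, LATS2 and STARD13. All 10 symbols matched 1 GENCODE 29 gene each, stood in both deposited tables and passed the filter on low values, as 10 of 15001 tested genes among 56982 identifiers in both tables. The study compared U2OS, a human osteosarcoma cell line, labelled wild type (WT), with the line G3C2, labelled ZFP36L1 deficient after CRISPR/Cas9 editing. Both were grown in DMEM with 10% foetal bovine serum and antibiotics and harvested in log phase at 65 to 75% confluency, with no other treatment. Poly(A)-selected RNA was sequenced in 3 libraries per genotype, with titles that carry no letter (called replicate 1 here), b or c. The 3 deficient libraries all carry the name G3C2, so the effect of the genotype and that of this line cannot be told apart. The labels do not say whether the WT cells also went through editing or cloning.

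ZFP36, ZFP36L1 and ZFP36L2 are zinc finger proteins that bind AU-rich elements in the 3′ untranslated region (UTR) of an mRNA and recruit the enzymes that shorten its poly(A) tail, after which the mRNA is decayed. Their reported targets include short-lived mRNAs for growth factors, transcription factors, kinases and feedback regulators. The sequence bound best contains the heptamer UAUUUAU, written TATTTAT in DNA letters, around the pentamer ATTTA. Loss of one family member can leave targets under the control of the others.

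The AU-rich stretches are shown first, since they are what makes these mRNAs candidates for binding. The 3′ UTRs were taken as the longest annotated one of each gene in GENCODE 29 (GRCh38) and searched on the transcribed strand only, with overlapping matches counted separately. TATTTAT was present in 8 of the 10, against 31.1% of 19128 genes with a 3′ UTR, and ATTTA in 10 of 10, against 67.6%. MYC and KLF10 held no TATTTAT, with 4 and 3 ATTTA pentamers. The longer TATTTATT was present in the same number, 8, against 18.0% of all genes. For 8 mRNAs, the window of 30 bases with the most matches, or the first where several tied, is given below from 5′ to 3′, with TATTTAT in capitals.
PIM1: ttatgTATTTATTTATTTATTTATttggtt
PLK3: cgtTATTTATggaccactttTATTTATtgt
DUSP1: gggctggtcctTATTTATttaacttcaccc
PLK2: aataaacttttTATTTATtacagcccaaag
PIM3: gccaactctgtTATTTATggtgtgaccccc
VEGFA: ttaatttcaacTATTTATgagatgtatctt
LATS2: agtttaactatTATTTATtgatatatcatt
STARD13: tgacccaacctTATTTATtattgtacagat

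PIM1 held 4 overlapping heptamers in 1 unbroken run, at chr6:37174987-37175016 on the plus strand. A count of at least 4 was found in 0.8% of the 2469 other genes whose 3′ UTR lay within 20% of its length of 1335 bases. PLK3 packed 3 heptamers into a 3′ UTR of 312 bases (window chr1:44805891-44805920, plus strand), as many as in 0.6% of 1431 genes of like length. DUSP1 held 3 in 672 bases (window with 1 of them at chr5:172768642-172768671, minus strand), as many as in 1.0% of 2030 genes. VEGFA held 3 in 1925 bases (window with 1 of them at chr6:43785879-43785908, plus strand), as many as in 4.6% of 2518. PLK2 (601 bases, window chr5:58454065-58454094, minus strand), PIM3 (953 bases, window chr22:49963567-49963596, plus strand) and STARD13 (2458 bases, window chr13:33104284-33104313, minus strand) held 2 each, with 1 of them in the window. For these 3, as many were found in 3.1%, 6.3% and 19.0% of genes of like length. LATS2 held 1 in 1838 bases (chr13:20973089-20973118, minus strand), a number reached by 38% of genes of like length. The counts of PIM1, PLK3 and DUSP1 were thus the least common of the 8 among genes of like length, and that of LATS2 the most common. A match is a description of the letters and does not show binding in these cells.

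**Figure D1:**
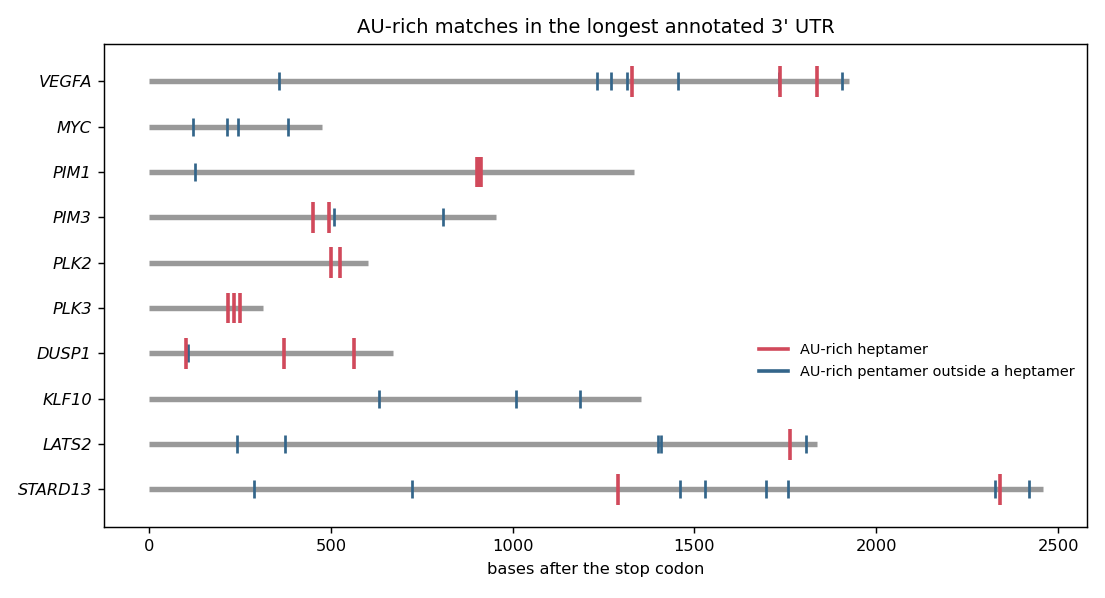
The longest annotated 3′ UTR of each of the 10 mRNAs, drawn to scale in bases after the stop codon, with AU-rich heptamers in red and pentamers outside a heptamer in blue. PIM1 has 4 heptamers in 1 cluster, PLK3 has 3 within 312 bases, and MYC and KLF10 have pentamers alone.

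Levels were deposited as FPKM, which scale reads by gene length and library size, in 2 tables with separate scales. The first held replicate 1 of both genotypes and the second replicates b and c. In WT, VEGFA was at 40.5 FPKM in the first table and at 5.04 and 9.6 in the second, a log2 shift of -2.38, where the median over all tested genes was -1.11. DUSP1 had a shift of 0.62. Levels are therefore compared within a table only, and the cause of the shifts was not tested. In the second table the steps between values gave back whole reads, between 535 and 7621 per target mRNA and library in libraries of at least 22600000 reads. Those reads came to 0.98 times the library size behind the deposited values in both replicate b libraries, but to 0.89 times in WT replicate c and 1.14 times in G3C2 replicate c. Scaled to the recovered reads instead, a choice made after the data were seen, the median G3C2 minus WT difference at label c went from 0.07 to -0.16 on the log2 scale over all tested genes, and every value given at label c carries this dependence, ratios within a library apart. At that label MYC went from 0.38 to 0.03, PIM3 from 1.37 to 1.01, LATS2 from 0.59 to 0.25 and DUSP1 from 0.13 to -0.23, the last with a turn of sign. Which scaling is right was not tested. For the first table the depth could not be recovered. The osteoblast and mesenchymal markers VIM, FN1, COL1A1, SPARC and RUNX2 were all above the filter, while COL1A2 (0.0141 to 0.521 FPKM) and ALPL (0.324 to 0.798) were below it. Of 9 epithelial, leukocyte and endothelial markers, EPCAM (3.05 to 18.7 FPKM) and VWF (0.222 to 1.87) passed the filter, and CD3E was listed at 0 in all 6 libraries.

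ZFP36L1 mRNA, the edited gene, was at 165 FPKM in WT and 238 in G3C2 at label 1, 57.1 and 105 at label b, and 128 and 82.4 at label c. Its transcript was thus not lower throughout in the line labelled deficient, and since the labels do not place the edit in the gene, the mRNA level does not check the label. The ZFP36L1 log2 fold change was 0.26 (SE 0.33, limma adjusted p = 0.752). ZFP36L2 was higher in G3C2 in every pair (21.9 and 37.8, 32 and 40.1, 23.8 and 36.7 FPKM; log2 fold change 0.56, SE 0.18, limma adjusted p = 0.261). ZFP36 had 7.03 and 7.24, 14 and 8.11, and 13.1 and 5.76 FPKM, with a log2 fold change of -0.58 (SE 0.24, limma adjusted p = 0.365).

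The comparison of G3C2 with WT asks whether mRNAs that the family is reported to destabilise differ in cells labelled as lacking 1 of its members. None of the 10 passed limma's test on log2(FPKM + 1) after Benjamini-Hochberg adjustment over all 15001 genes, with adjusted p between 0.219 and 0.847. Of all tested genes, 0.0467% (7) passed, 3 higher and 4 lower, against 1 higher and 3 lower with the second table scaled to its recovered reads. With a replicate block 1 gene passed. At an unadjusted p under 0.05, 2 of the 10 were higher (PIM3 and LATS2) and 0 lower, where 6.19% of all genes were higher and 7.43% lower. Counting instead the genes whose G3C2 libraries lay all on 1 side of the WT libraries within each table, 2 were higher (PIM3 and LATS2) and 2 lower (PIM1 and KLF10), where 14.9% of all genes were higher and 14.8% lower. The other 6 overlapped. These counts, and those without overlap given below for other lists, use the deposited scaling and were not repeated at the recovered reads. The first table holds 1 library per genotype, so this count rests there on a single pair. The median log2 fold change of the 10 was -0.20, against 0.01 over all tested genes. In bulk RNA, a difference in the number of cells that hold an mRNA and one in its amount per cell cannot be told apart.

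**Figure D2:**
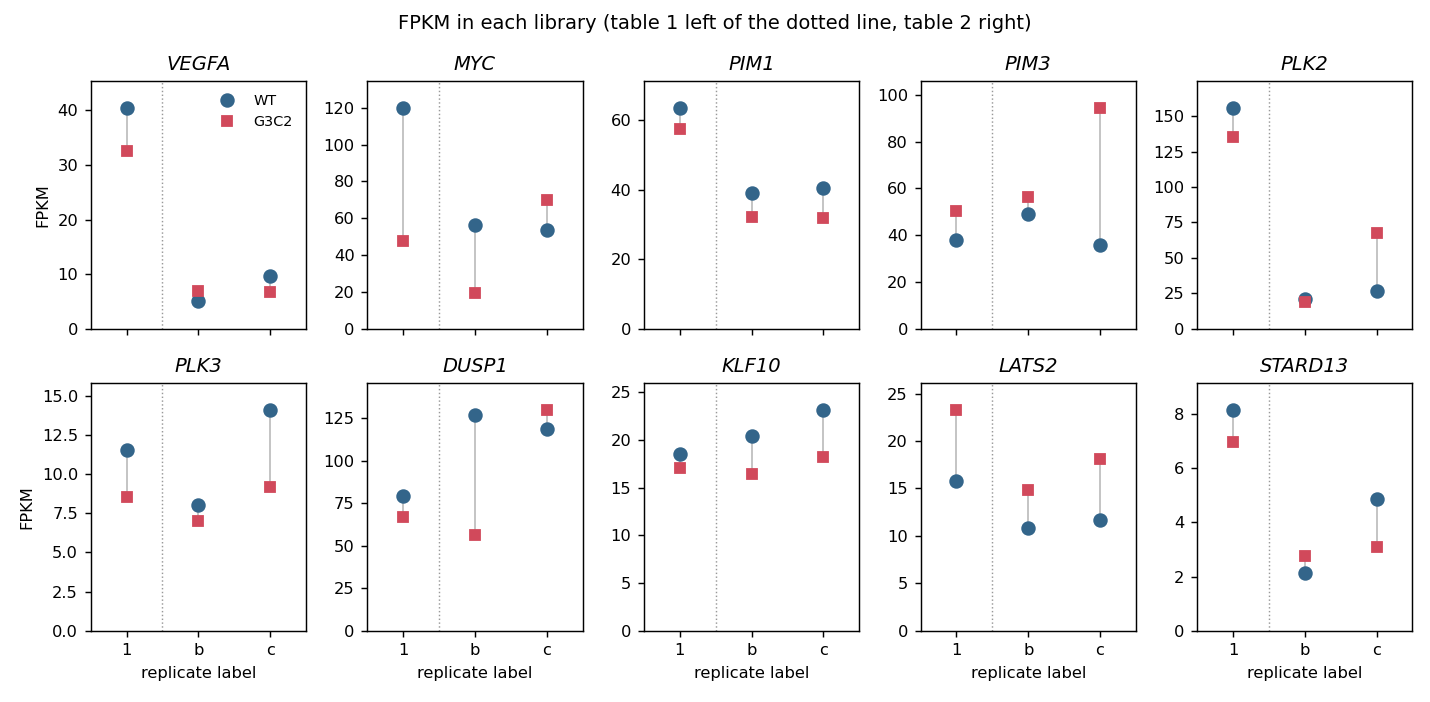
FPKM of the 10 target mRNAs in each of the 6 libraries, WT as blue circles and G3C2 as red squares, with same-labelled replicates joined by a grey line. The dotted line separates the tables, whose scales differ. PIM1 and KLF10 lie lower and PIM3 and LATS2 higher in G3C2 at every label.

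The PIM kinases are serine/threonine kinases that promote survival and growth and act without a known need for activation by phosphorylation, so their amount is set largely by synthesis and decay. PIM1 (ENSG00000137193, chromosome 6, 37170203 to 37175426) had 63.7 FPKM in WT and 57.5 in G3C2 at label 1, 39.1 and 32.3 at label b, and 40.5 and 31.9 at label c. The G3C2 libraries were lower at each label, and in the second table the replicates of 1 genotype lay within 1.04-fold of each other. Across the 3 labels the log2 fold change was -0.25 (SE 0.14, 95% interval -0.59 to 0.09, limma adjusted p = 0.492).

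PIM3 (ENSG00000198355, chromosome 22, 49960513 to 49964080) went the other way, with 38.1 FPKM in WT and 50.2 in G3C2 at label 1, 48.9 and 56.5 at label b, and 35.9 and 94.6 at label c. All G3C2 values lay above those of WT within each table, with the widest gap in replicate c. For PIM3 the log2 fold change was 0.66 (SE 0.25, interval 0.04 to 1.27, limma adjusted p = 0.341). It was 0.41 without G3C2 replicate c and 0.30 without the c pair. Within a library, the ratio of PIM3 to PIM1 FPKM was 0.599 in WT and 0.874 in G3C2 in replicate 1, 1.25 and 1.75 in b, and 0.888 and 2.97 in c. This ratio needs no scaling between libraries, and it was higher in G3C2 at all 3 labels, by 0.54, 0.48 and 1.74 on the log2 scale. PIM1, the mRNA with the clustered heptamers, and PIM3, with 2 separate ones, thus differed in direction. No test of this difference was run.

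LATS2 and STARD13 encode brakes on growth and movement. LATS2 is a Hippo pathway kinase that phosphorylates and restrains the coactivators YAP and TAZ. LATS2 (ENSG00000150457, chromosome 13, 20973032 to 21061547) had 15.8 FPKM in WT and 23.3 in G3C2 at label 1, 10.8 and 14.8 at label b, and 11.7 and 18.1 at label c. The genotypes did not overlap in either table and the pair differences were 0.53, 0.42 and 0.59 on the log2 scale. Its limma estimate was 0.51 (SE 0.14, interval 0.17 to 0.86), with the lowest adjusted p of the 10, 0.219. The paralog LATS1, named after its values were seen, had a log2 fold change of 0.05 (SE 0.13). The ratio of LATS2 to LATS1 within a library was 0.603 in WT and 0.887 in G3C2 in the first table, 1.56 and 1.86 in the b libraries, and 1.62 and 2.61 in the c libraries.

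STARD13 is a RhoGAP, which turns off RHOA, and carries a lipid-binding START domain. STARD13 (ENSG00000133121, chromosome 13, 33103135 to 33350630) was the least abundant of the 10 in every library, at 8.16 FPKM in WT and 6.96 in G3C2 at label 1, 2.15 and 2.75 at label b, and 4.88 and 3.11 at label c. The genotypes overlapped in the second table, where WT differed 2.27-fold between replicates b and c. The STARD13 log2 fold change was -0.16 (SE 0.25, interval -0.75 to 0.44). Without WT replicate c it was 0.09, so this library decides its direction.

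MYC, the transcription factor that drives growth and biosynthesis, had the largest absolute log2 fold change of the 10 and also one of the widest errors. MYC (ENSG00000136997, chromosome 8, 127735434 to 127741434) had 120.1 FPKM in WT and 47.7 in G3C2 at label 1, 56.4 and 19.6 at label b, and 53.4 and 69.9 at label c. It was lower in G3C2 by 2.52-fold and 2.88-fold in replicates 1 and b and higher by 1.31-fold in replicate c. For MYC the log2 fold change was -0.80 (SE 0.46, interval -1.92 to 0.32, limma adjusted p = 0.496). Without replicate c it was -1.40 with a limma adjusted p of 0.00142, from a fit with 1 residual degree of freedom that called 6.03% of all genes. Without G3C2 replicate c alone the value was -1.39 (limma adjusted p = 0.061), and without G3C2 replicate b it was -0.37 (limma adjusted p = 0.735). The 2 WT libraries of the second table lay within 1.06-fold, while G3C2 replicate c was 3.57 times G3C2 replicate b.

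The polo-like kinases PLK2 and PLK3 take part in stress responses and cell cycle checkpoints. PLK2 (ENSG00000145632, chromosome 5, 58453982 to 58460260) had 156 FPKM in WT and 135 in G3C2 at label 1, 21.3 and 19.1 at label b, and 26.5 and 67.5 at label c. Its mean difference was positive through G3C2 replicate c alone. The log2 fold change was 0.32 (SE 0.46, interval -0.81 to 1.45) and became -0.26 without G3C2 replicate c. PLK3 (ENSG00000173846, chromosome 1, 44800225 to 44805990) had 11.5 and 8.54 FPKM in replicate 1, 8.03 and 6.99 in b, and 14.1 and 9.19 in c, WT first. It was lower in G3C2 at all 3 labels, but as deposited the groups overlapped, since G3C2 replicate c lay above WT replicate b. Scaled to the recovered reads, the PLK3 difference at label c was -0.90 instead of -0.57 on the log2 scale. The log2 fold change of PLK3 was -0.38 (SE 0.23, interval -0.93 to 0.17), with -0.17 when WT replicate c was left out and -0.59 when WT replicate b was. The ratio of PLK2 to PLK3 stood at 2.66 and 2.73 in WT and G3C2 replicate b and at 1.88 and 7.35 in replicate c.

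DUSP1 and KLF10 are early-response genes. DUSP1 is a nuclear phosphatase that switches off MAP kinases, and KLF10 a repressor induced early by TGF-beta. DUSP1 (ENSG00000120129, chromosome 5, 172768090 to 172771195) had 79.5 FPKM in WT and 67 in G3C2 at label 1, 127 and 56.2 at label b, and 119 and 130.2 at label c. As deposited, the G3C2 replicates of the second table differed 2.32-fold and lay on either side of the WT values. Scaled to the recovered reads, the DUSP1 difference at label c was -0.23 instead of 0.13 on the log2 scale. With the deposited scaling the DUSP1 log2 fold change was -0.43 (SE 0.32, interval -1.21 to 0.35), and without replicate b it was -0.06. KLF10 (ENSG00000155090, chromosome 8, 102648779 to 102655902) had 18.5 and 17.1 FPKM in replicate 1, 20.4 and 16.5 in b, and 23.2 and 18.2 in c, WT first. It lay lower in all G3C2 libraries within each table, with a log2 fold change of -0.24 (SE 0.14, interval -0.59 to 0.11).

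VEGFA, the secreted growth factor for blood vessels, had 40.5 FPKM in WT and 32.6 in G3C2 at label 1, 5.04 and 6.93 at label b, and 9.6 and 6.77 at label c. VEGFA (ENSG00000112715, chromosome 6, 43770184 to 43786487) was lower in G3C2 at labels 1 and c and higher at b. Both G3C2 values of the second table lay between those of WT. Its log2 fold change of -0.12 (SE 0.23, interval -0.68 to 0.45) was the smallest of the 10, and it was 0.09 without WT replicate c. Of its receptors and coreceptors, KDR, FLT1 and NRP2 stayed below the filter, at no more than 0.983 FPKM. The coreceptor NRP1, named after its values were seen, passed it, at 4.77 to 27 FPKM (log2 fold change -0.09, SE 0.30).

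**Figure D3:**
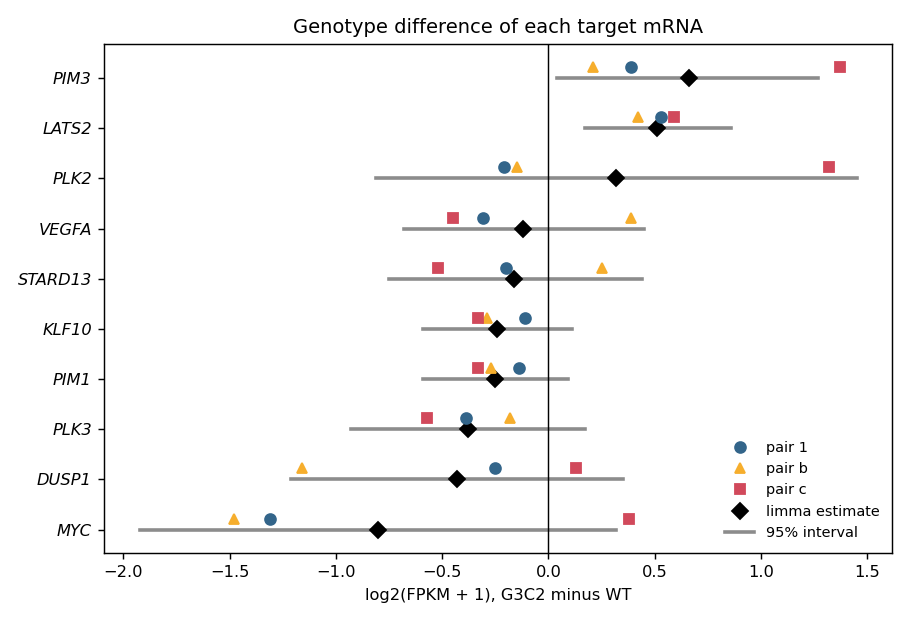
Difference in log2(FPKM + 1), G3C2 minus WT, for each target mRNA. Coloured points are the same-labelled pairs 1, b and c, black diamonds the limma estimates over 6 libraries, and grey bars their 95% intervals. The bars of PIM3 and LATS2 lie above 0 before adjustment over all genes, and the pairs of VEGFA, MYC, PLK2, DUSP1 and STARD13 lie on both sides of 0.

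The spread between replicates of 1 genotype was as large as or larger than the genotype difference for several of these mRNAs. From G3C2 replicate b to c, MYC moved by 1.78, PLK2 by 1.77 and DUSP1 by 1.20 on the log2 scale, at the 99.4th, 99.4th and 97.4th percentiles of absolute movement over all tested genes. The same 3 mRNAs moved by -0.08, 0.30 and -0.09 between the WT replicates. The largest movements of the 10 in WT were those of STARD13 (0.90), VEGFA (0.81) and PLK3 (0.74), at the 95.5th, 93.7th and 91.8th percentiles of absolute movement, against 0.13, -0.03 and 0.35 in G3C2. PIM1, KLF10 and LATS2 moved by at most 0.27 in either genotype. Over all tested genes the median absolute movement was 0.24 in WT and 0.30 in G3C2. Movement in G3C2 was not shared by all early-response genes: EGR1 stood at 60.5 and 10.1 FPKM in G3C2 replicates b and c, and FOS, named after its values were seen, at 42.5 and 4.61, while DUSP1 went from 56.2 to 130.2. The part of growth state or of the library in these movements was not tested.

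**Figure D4:**
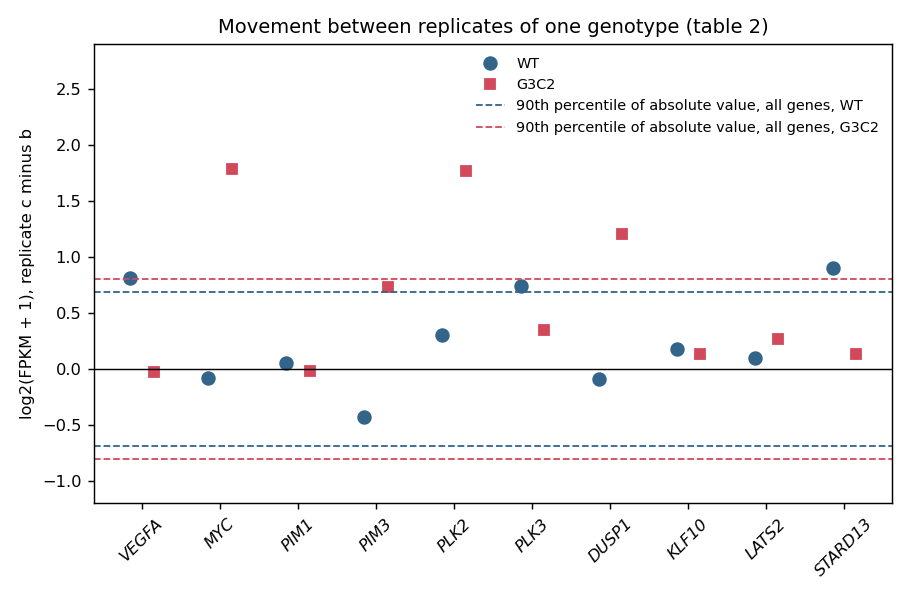
Difference in log2(FPKM + 1) between replicates c and b of the same genotype, for each target mRNA in the second table, with WT as blue circles and G3C2 as red squares. Dashed lines mark the 90th percentile of absolute movement over all tested genes, 0.69 in WT and 0.80 in G3C2. MYC, PLK2 and DUSP1 exceed it in G3C2, and STARD13, VEGFA and PLK3 in WT.

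A further 42 mRNAs reported as family targets were listed, and 30 of them passed the filter. None was called, 6 of the 30 lay higher and 5 lower without overlap in either table, beside 14.9% and 14.8% of all tested genes, and the median log2 fold change was 0.06. PLAUR, the urokinase receptor, had a log2 fold change of 1.01 (SE 0.23, limma adjusted p = 0.181), with 65.8 and 116 FPKM, 23.7 and 35.8, and 16.6 and 54.1 in WT and G3C2. BIRC3, an inhibitor of apoptosis, had -0.91 (SE 0.38), from pair differences of -2.16, -0.49 and -0.09 at labels 1, b and c. Its value thus rests mainly on label 1. BIRC3 reached 1 FPKM in the first table only, and stood at 0.0853 to 0.525 in the second. CCND1, cyclin D1, had 0.47 (SE 0.18), HIF1A, the hypoxia factor, 0.35 (SE 0.16) and EGR1, an early-response transcription factor, -1.91 (SE 0.82). The EGR1 pair differences were 0.08, -1.83 and -3.98 at labels 1, b and c, so its value rests on the second table, with the widest gap at label c. Among the inflammatory targets, TNF, IL2, IL3, CXCL1 and CXCL2 were below the filter, the last 2 listed at 0 in all 6 libraries. Others of that kind, named after their values were seen, passed it, among them CCL2 (6.41 to 17.1 FPKM), LIF (9.13 to 35.9), CXCL8, CSF2 and PTGS2. The values of the reported targets thus went in both directions.

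Close relatives of the 10 genes were listed beside them, 17 paralogs of which 14 were tested, with none called, 0 higher and 3 lower without overlap (all tested genes: 14.9% and 14.8%) and a median of -0.03. DUSP5, a phosphatase of ERK, had -0.76 (SE 0.16, limma adjusted p = 0.164) and KLF9 -0.67 (SE 0.42), while VEGFB, PLK1 and KLF13 had 0.05 (SE 0.17), 0.36 (SE 0.33) and -0.21 (SE 0.21). At labels 1, b and c the PLK1 pair differences were 0.02, -0.35 and 1.41, and those of KLF13 0.00, 0.03 and -0.65. The values of PLK1 and KLF13 thus rest mainly on label c. The KLF9 pair differences were -0.02, -0.16 and -1.83 at labels 1, b and c, so its value rests mainly on label c. There G3C2 stood at 2.37 FPKM, against 8.89 in G3C2 replicate b. KLF13 was named through its level of 84.9 and 85.1 FPKM in the first table, and stood at 1.07 to 2.28 in the second. Of 33 partners and pathway genes, 30 were tested and none was called, with 8 higher and 0 lower without overlap, again beside 14.9% and 14.8% of all tested genes, and a median of 0.06. The 8 included the Hippo kinases STK4 (log2 fold change 0.31, SE 0.14) and STK3 (0.28, SE 0.13), which act upstream of LATS2, with limma adjusted p of 0.401 and 0.425. The YAP target CYR61, also called CCN1, had -0.01 (SE 0.33), from pair differences of -0.30, -0.35 and 0.61 at labels 1, b and c. The YAP targets CTGF and ANKRD1, named after their values were seen, had -0.53 (SE 0.36) and 0.27 (SE 0.26). YBX1 and RHOA had 0.34 (SE 0.34) and 0.12 (SE 0.27). Their pair differences at labels 1, b and c were -0.03, -0.13 and 1.18 for YBX1 and -0.20, -0.24 and 0.80 for RHOA. Both values were thus positive through label c alone.

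**Figure D5:**
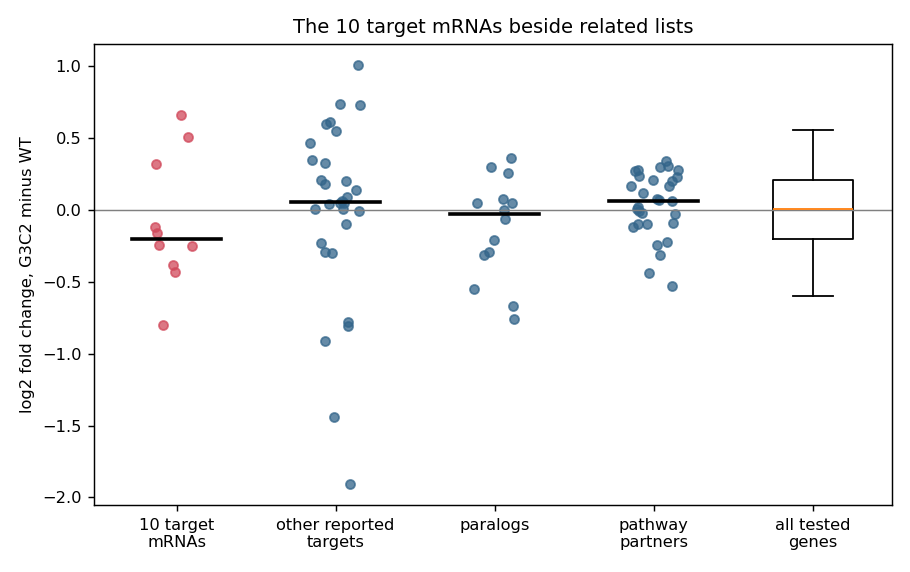
Log2 fold change, G3C2 minus WT, of the 10 target mRNAs, 30 other reported targets, 14 paralogs and 30 pathway partners, each point 1 gene and each bar the median of its list (-0.20, 0.06, -0.03 and 0.06). The box shows the median and the 25th and 75th percentiles of all 15001 tested genes, with whiskers at the 5th and 95th.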

How the data were processed

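The authors deposited FPKM in 2 tables, per the file headers and labels. CASAVA and HISAT2 are the tools, and GRCh38.p12 the build, per the submitters' processing notes. Not given in the sources used here are the counting tool, its gene lengths and its strand setting. The 10 mRNAs and the gene lists were chosen with earlier results of these data known. The genes named are the 10, the 3 family genes and, per list, up to 4 past the threshold, the 3 with the highest mean FPKM taken over both tables although their scales differ, and the 2 with the largest fold change of 1 sign in all 3 pairs.

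Values of log2(FPKM + 1) were fitted by limma 3.58.1 (R 4.3.3) with genotype and table as terms and a trended prior. P-values were adjusted by Benjamini-Hochberg, with a threshold of 0.05. A gene was tested where 2 or more libraries reached 1 FPKM and each table listed it. Fold changes on this scale understate low genes. The code was tested on simulated data. The labels do not say which libraries were grown on the same occasion, so p-values reflect only how these libraries vary, which may be technical. With GENCODE 29 exon lengths, 97.0% to 97.2% of values in the second table were whole reads within 0.02, against 33.9% to 35.4% in the first. Deviations from the group means correlated between same-labelled libraries (r = 0.93, 0.80 and 0.60 for 1, b and c). These deviations hold the difference in scale between the tables, and within the second table r was -0.17. The alternatives tried are named in the closing section. Sequence windows come from GENCODE 29 transcripts and are not shown for 2 of the 10 genes.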

Additional observations from a re-analysis of the deposited data

How the results depend on the processing

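Alternatives were a pseudocount of 0.1, no filter, a mean FPKM of at least 5 (which removes STARD13), the replicate block, equal medians, quantile normalization, no trend, leaving out single libraries or whole pairs, limma-voom on recovered reads and, chosen after the data were seen, a block crossing labels b and c and the second table scaled to its recovered reads. The number of the 10 mRNAs called was 0 throughout, the replicate block included, except 1 (MYC) without replicate c, and ranged from 0 to 1 over the leave-outs. Of the 30 other reported targets 0 were called, except 2 without replicate c (PLAUR at 0.69 and IRF8 at -1.18), a range of 0 to 2. With the replicate block the MYC log2 fold change stayed -0.80 (limma adjusted p = 0.510) and that of LATS2 0.51 (0.314), and the block changed no call on a listed gene. The crossed block called 3 genes higher and 5 lower, none of the 10. Over all tested genes, 3 were called higher and 4 lower, against 0 and 1 with the replicate block, 5 and 6 at equal medians, 1 and 3 at the recovered reads, 2 and 1 at the mean FPKM of 5, 448 and 457 without replicate c, 60 and 151 without replicate b, and 0 with no filter, quantile normalization or limma-voom. Over 189 values from 19 settings, 6 reversed direction, in 3 genes: VEGFA ranged from -0.38 to 0.09, PLK2 from -0.26 to 0.75 and STARD13 from -0.42 to 0.09 over the leave-outs. The ZFP36L1 value ranged from -0.05 to 0.70 and passed without replicate c. PIM1, PIM3, PLK3, DUSP1, KLF10, LATS2 and MYC kept their sign in all settings run, with leave-out ranges of -1.40 to -0.37 for MYC, 0.30 to 0.88 for PIM3, -0.59 to -0.17 for PLK3 and -0.74 to -0.06 for DUSP1. Scaled to the recovered reads, VEGFA had -0.23, PLK2 0.20 and STARD13 -0.25, and the median of all tested genes was -0.08. Fits without the whole b pair or the whole c pair have 1 residual degree of freedom. Searching every annotated transcript instead of the longest 3′ UTR left 8 of the 10 with TATTTAT. Depth was recovered for the second table only.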

Other observations

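Beyond the listed mRNAs, tested genes with a 3′ UTR were grouped by their number of TATTTAT heptamers, as a description with no test. The 7741 genes with none had a median log2 fold change, G3C2 minus WT, of 0.009, the 2489 with 1 had 0.046, the 1027 with 2 had 0.063, the 656 with 3 to 4 had 0.065 and the 196 with 5 or more had 0.037. Median 3′ UTR length moved with the count, from 948 bases at none to 6047.5 at 5 or more, and its part in these medians was not tested. By replicate label the medians for none and for 5 or more were -0.108 and -0.053 for label 1, -0.045 and 0.073 for b, and 0.126 and 0.071 for c. Genes with the heptamer thus lay above those without it at labels 1 and b and below them at c.

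The interaction of genotype and table passed limma's adjusted test for 0 genes (429 had an unadjusted p under 0.05), with 0 of the 10 target mRNAs at an unadjusted p under 0.05 and a lowest adjusted p of 0.948 among them.

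PTGS2, a reported target encoding cyclooxygenase-2 and named after its values were seen, was lower in G3C2 in both tables without overlap, at 2.93 and 1.73, 1.69 and 0.938, and 3.17 and 0.656 FPKM in WT and G3C2 for labels 1, b and c (log2 fold change -0.78, SE 0.21, limma adjusted p = 0.217). Its 3′ UTR holds 7 TATTTAT heptamers, as does that of CSF2, which was higher in G3C2 at every label (log2 fold change 0.61, SE 0.32). A link between heptamer count and direction was not tested.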
